A study of Mus musculus with 10 samples.

Results

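The mitochondrial ribosomal proteins are the nuclear-encoded proteins of the ribosome inside mitochondria. They were taken as every gene of the liver count table whose symbol begins with Mrpl or Mrps followed by a number. This gave 77 of 19764 genes, 48 of them assigned to the large subunit (Mrpl) and 29 to the small subunit (Mrps) by symbol. All 77 passed the filter on low counts, with 102 to 2667 counts per gene and library.

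Whole-liver polyadenylated RNA was sequenced from female GRMAC mice, which carried a floxed glucocorticoid receptor gene (GRflox) together with LysM-Cre (+/-), and from littermate GRflox controls with the floxed gene. Both groups were fasted for 8 h from ZT12, the onset of the active phase, and the samples used here include no fed mice. Each group had 5 libraries, and the labels do not state that each is a separate animal, so p-values measure the spread between these libraries. The LysM promoter drives Cre in the myeloid lineage, macrophages included, so hepatocytes of GRMAC liver are outside its main target. The GRflox mice carry no Cre by their label, so carrying Cre and losing the receptor cannot be told apart.

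The mitochondrial ribosome translates the few messenger RNAs of the mitochondrial genome, all of which encode subunits of the respiratory chain complexes and ATP synthase. Its RNA comes from the mitochondrial genome, whereas its proteins are made in the cytosol and imported. The large subunit forms peptide bonds and threads the new chain to the inner membrane, and the small subunit binds the messenger RNA and decodes it. In liver, where mitochondria oxidise fatty acids during a fast, these genes are expressed in every cell type, so they are no markers of macrophages.

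Library totals ran from 23258884 to 26116916 counts in GRMAC and from 25697931 to 27692528 in GRflox. Nr3c1, the gene of the glucocorticoid receptor, was at 74.7 to 94.0 CPM (counts scaled to library size, with TMM factors) in GRMAC and 63.8 to 81.2 CPM in GRflox liver, and whole-liver counts per gene do not check a deletion in myeloid cells. Summed hepatocyte markers, all 6 of them detected, were at 109000 to 134000 CPM in GRMAC and 114200 to 132200 CPM in GRflox. The 8 Kupffer cell markers, all detected, summed to 238.6 to 347.4 CPM in GRMAC and 201.9 to 270.6 CPM in GRflox. Single markers went both ways. Log2 fold changes (GRMAC over GRflox) ran from −0.8511 to 0.5544 for the Kupffer cell markers, with 2 of 8 below 0. For the hepatocyte markers they ran from −0.4743 to 0.1355, with 2 of 6 below 0. The 3 B cell markers, all detected at low level, summed to 2.08 to 3.40 CPM in GRMAC and 0.624 to 1.90 CPM in GRflox, without overlap. Sums of monocyte, neutrophil, T or NK cell, endothelial, stellate, cholangiocyte and red blood cell markers overlapped between the genotypes. The part of these markers in the results was not tested. In whole liver, fewer cells of a type and less RNA per cell cannot be told apart.

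Mitochondrial ribosomal protein genes mostly had slightly lower levels in GRMAC liver, and none passed the test over all genes. The ratio of GRMAC to GRflox was lowest for Mrps6 (0.757), Mrps36 (0.806), Mrpl34 (0.828) and Mrps2 (0.842). Of the 77 genes, 66 had a log2 fold change (GRMAC over GRflox) below 0, a share of 85.7% where 49.8% of all 12558 genes tested were below 0. The median log2 fold change was −0.0765 for the large subunit, with 40 of 48 genes below 0, and −0.0971 for the small subunit, with 26 of 29 below 0; the median of all genes was 0.0010. Fold changes ran from −0.27 to 0.17 in the large and from −0.40 to 0.20 in the small subunit, with standard errors from 0.0518 to 0.134. At −0.1 or below lay 30 genes, and 2 lay at 0.1 or above. The counts of signs carry no test of their own. Without GRMAC 4, the library with the lowest levels of these genes, 60 of 77 were below 0 and the medians were −0.0663 (large) and −0.0636 (small). GRMAC 4 was also the lowest library for oxidative phosphorylation subunits (mean deviation of log2 CPM −0.1397) and cytosolic ribosomal proteins (−0.1256), beside −0.1144 and −0.1051 for the large and small subunit; its part in these results beyond leaving it out was not tested.

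With edgeR's quasi-likelihood test and Benjamini-Hochberg adjustment over all genes at a threshold of 0.05, 0.175% of all genes were called (0.119% higher and 0.0557% lower in GRMAC) and none of the 77. At an unadjusted p under 0.05, 12 of the 77 were lower (15.6%, where 7.75% of all genes were) and 1 was higher, where 8.58% of all genes were. In the authors' deposited table Mrps6 and Mrpl34 passed an adjusted p under 0.05 as lower and no member as higher; 1.49% of its genes with an adjusted p passed as lower and 1.84% as higher. A DESeq2 refit called the same 2 genes (1.66% of all genes called lower), and limma-voom called none of the 77.

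**Figure D1:**
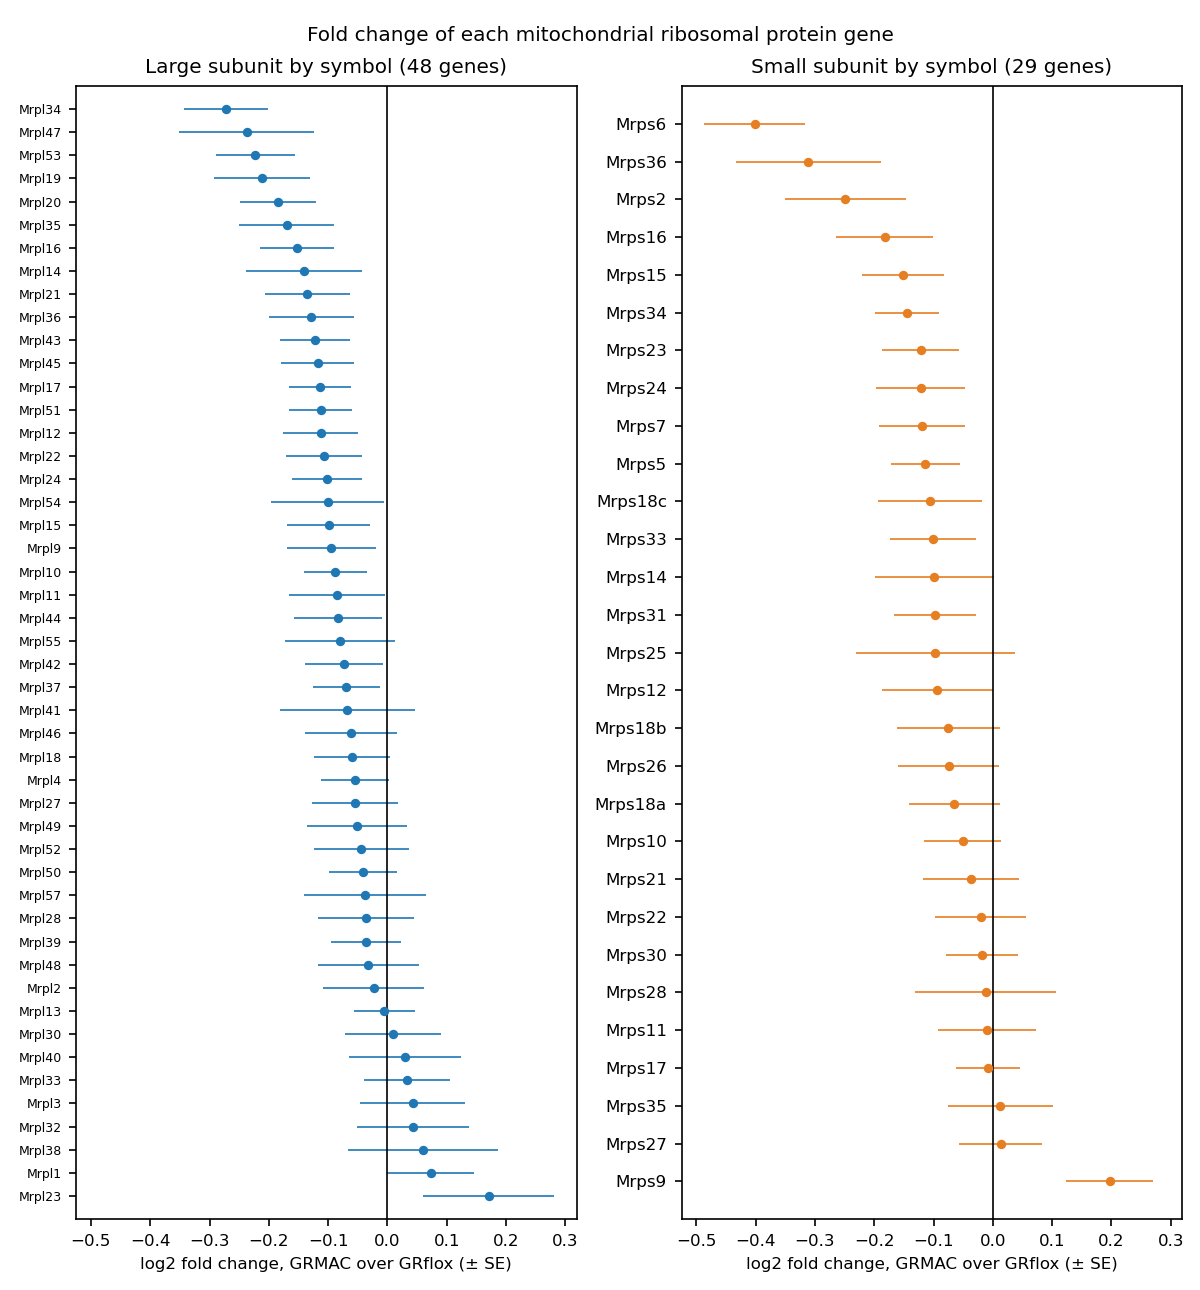
Log2 fold change of GRMAC over GRflox (x axis, ± SE) for each of the 48 large and 29 small subunit genes, ordered from the lowest at the top. In the large subunit 40 points and in the small subunit 26 points lie left of 0, with Mrps6 (−0.40) and Mrps9 (0.20) at the ends.

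Summed over the 48 large subunit genes, GRMAC libraries 1 to 5 held 1333.9, 1366.5, 1362.3, 1255.8 and 1343.9 CPM, and GRflox libraries 1 to 5 held 1382.0, 1377.7, 1439.9, 1406.0 and 1412.0 CPM. The 29 small subunit genes summed to 639.7, 644.3, 655.1, 623.9 and 640.2 CPM in GRMAC and to 667.9, 668.4, 698.7, 674.6 and 690.5 CPM in GRflox. In both subunits every GRMAC sum lay below every GRflox sum. The mean sums differed by −5.06% (large) and −5.79% (small), GRMAC relative to GRflox. The ratio of large to small sums was 2.08 ± 0.0405 in GRMAC and 2.06 ± 0.0142 in GRflox (SD, n = 5), with overlapping values.

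A mean that weights all genes alike gave nearly the same order of libraries. The mean deviation of log2 CPM from each gene's own average was −0.0339, 0.0051, −0.0030, −0.1144 and −0.0432 in GRMAC 1 to 5 for the large subunit, and 0.0042, 0.0118, 0.0806, 0.0414 and 0.0515 in GRflox 1 to 5. For the small subunit it was −0.0482, −0.0075, −0.0153, −0.1051 and −0.0587 in GRMAC and 0.0241, 0.0371, 0.0637, 0.0448 and 0.0650 in GRflox. Small subunit values did not overlap between the genotypes, and in the large subunit GRMAC 2 lay just above GRflox 1. Of the 77 genes, 31 had their lowest level of all 10 libraries in GRMAC 4 and 16 in GRMAC 2, while 18 had their highest in GRflox 3 and 13 in GRflox 5. In all, 59 genes were lowest in a GRMAC library and 54 were highest in a GRflox library.

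**Figure D2:**
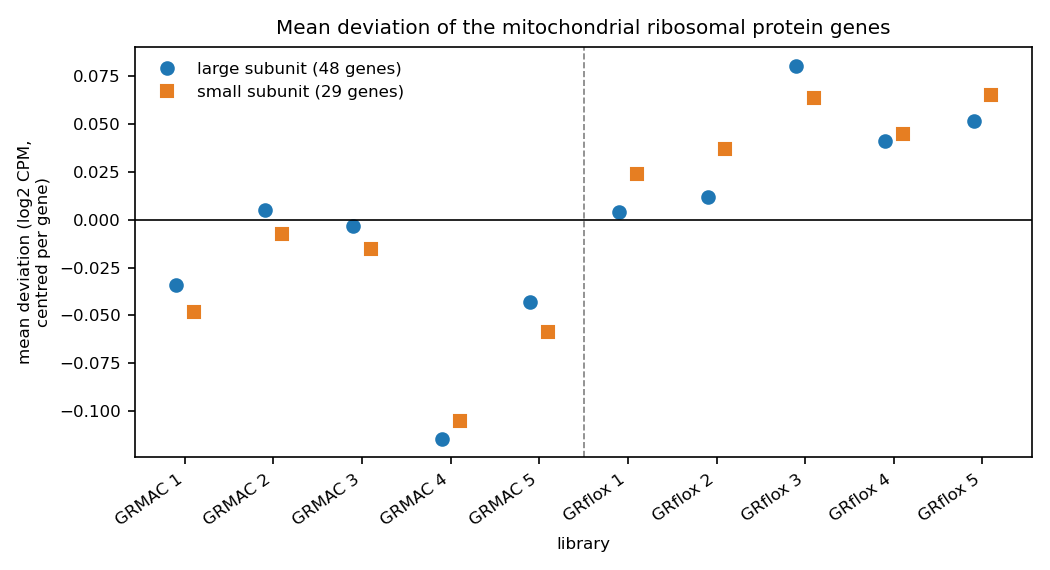
Mean deviation of log2 CPM from each gene's average (y axis) in each library, GRMAC left and GRflox right of the dashed line, for the 48 large (circles) and 29 small (squares) subunit genes. GRMAC 4 is lowest for both subunits, and circles and squares of a library lie close together.

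The dependence of levels on transcript GC content also leaned with genotype. The slope of log2 CPM deviation on transcript GC content, per 10 points of GC, was −0.0544 to 0.0087 in GRMAC and 0.0080 to 0.0699 in GRflox libraries. These ranges overlapped, with GRMAC 5 just above GRflox 1. The 77 genes had a median GC content of 50.69%, where all genes tested had 50.46%, and a median exonic length of 1226 bases, where all genes had 2906. After correction for GC content and exonic length the medians were −0.0676 (large) and −0.0792 (small), with 63 of 77 genes below 0. Across the 77 genes, which share their libraries, Spearman's rho of fold change with GC content was −0.049, and with exonic length 0.062. Across the 12551 tested genes with a GC content, rho of fold change with GC content was −0.223.

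Among large subunit genes, Mrpl34 had the lowest fold change. It encodes the counterpart of bacterial L34 (NM_053162, mm10 chr8:71464926-71465753, plus strand). Mrpl34 was at 24.8, 24.6, 27.7, 27.05 and 25.2 CPM in GRMAC 1 to 5, against 32.8, 27.5, 28.8, 34.1 and 33.1 CPM in GRflox 1 to 5. The groups overlapped by a small margin, GRMAC 3 lying just above GRflox 2. The log2 fold change was −0.27 ± 0.07 (SE), which did not pass with edgeR (adjusted p = 0.1005); the authors' deposited table gives −0.27 with adjusted p = 0.0296.

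The flexible L7/L12 stalk recruits translation factors, and its 5 genes all had fold changes below 0, from −0.22 to −0.08. Mrpl53 encodes a stalk protein without a bacterial counterpart (NM_026744, chr6:83109108-83109932, plus strand). Mrpl53 was at 19.4, 19.8, 19.2, 18.7 and 20.2 CPM in GRMAC and 21.8, 20.6, 22.3, 23.4 and 25.5 CPM in GRflox, so every GRMAC library lay below every GRflox library. Its log2 fold change was −0.22 ± 0.07 (edgeR adjusted p = 0.141). Exons of Mrpl53 overlap those of other annotated genes, so its counts are uncertain. Mrpl12, the counterpart of bacterial L7/L12, which in human cells also binds mitochondrial RNA polymerase, was the gene with the highest level, at 85.8, 81.3, 86.2, 78.1 and 88.0 CPM in GRMAC and 86.3, 83.8, 101.4, 95.3 and 86.6 CPM in GRflox. Its groups overlapped (−0.11 ± 0.06, edgeR adjusted p = 0.399). Mrpl10, which anchors the stalk (−0.09), Mrpl11 at its base (−0.08) and Mrpl54 (−0.10) had similar values, none past the threshold.

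Around the exit of the peptide tunnel, 5 of 6 genes were below 0. Mrpl45, which in human mitochondria ties the large subunit to the inner membrane, was at 25.8 ± 1.76 CPM in GRMAC and 28.0 ± 1.16 CPM in GRflox (SD, n = 5; −0.12 ± 0.06, edgeR adjusted p = 0.358). Mrpl47, the counterpart of bacterial L29, was at 11.1 ± 1.61 CPM in GRMAC and 13.1 ± 1.70 CPM in GRflox (−0.24 ± 0.11); its exons overlap those of Actl6a and Ndufb5 on the opposite strand, and a strand setting is not stated. Mrpl17, Mrpl22 and Mrpl24 had −0.11, −0.11 and −0.10. Mrpl23, the counterpart of bacterial L23, went the other way, with 14.9, 18.2, 14.6, 12.8 and 12.5 CPM in GRMAC and 10.9, 14.1, 12.4, 14.3 and 13.0 CPM in GRflox. These values overlapped widely (0.17 ± 0.11, edgeR adjusted p = 0.466).

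In the central protuberance, which faces the small subunit, 5 of 7 genes were below 0 and the fold changes were small, from −0.08 (Mrpl55) to 0.06 (Mrpl38). The level of Mrpl38 spread more in GRMAC, at 51.1, 58.7, 53.1, 44.6 and 76.8 CPM, than in GRflox, at 57.1, 59.8, 47.1, 54.2 and 54.4 CPM. Its fold change of 0.06 ± 0.13 rested on GRMAC 5 and was −0.0720 without that library.

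Other large subunit genes with a low unadjusted p were Mrpl20, needed in bacteria for assembly of the large subunit, Mrpl19 and Mrpl16, a counterpart of a protein near the peptidyl transferase centre. Mrpl20 was at 28.0 ± 1.83 CPM in GRMAC and 31.8 ± 2.04 CPM in GRflox (−0.18 ± 0.06, edgeR adjusted p = 0.189). Mrpl19 was at 11.0 ± 0.848 CPM in GRMAC and 12.8 ± 0.945 CPM in GRflox (−0.21 ± 0.08), and its exons overlap Gcfc2 on the opposite strand. Mrpl16 was at 24.3 ± 1.11 CPM in GRMAC and 27.02 ± 1.81 CPM in GRflox (−0.15 ± 0.06). The groups of all 3 genes overlapped. Mrpl1, of the stalk from which spent transfer RNA leaves, was at 23.9 ± 2.14 CPM in GRMAC and 22.7 ± 1.43 CPM in GRflox (0.07 ± 0.07), a difference within the spread, and it was −0.0081 after the GC content and length correction.

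Mrps6, which encodes the counterpart of bacterial S6, had the lowest fold change of the 77 genes (NM_080456, chr16:92058336-92112227, plus strand). Mrps6 was at 8.70, 9.82, 9.37, 8.30 and 8.76 CPM in GRMAC 1 to 5, against 13.3, 11.1, 10.8, 11.5 and 12.7 CPM in GRflox 1 to 5. Every GRMAC library lay below every GRflox library. The log2 fold change was −0.40 ± 0.09 (SE), which missed the threshold with edgeR (adjusted p = 0.0649, and 0.00347 to 0.149 over the alternatives run), and the authors' deposited table gives −0.40 with adjusted p = 0.0041. Exons of Mrps6 overlap those of Slc5a3, a myo-inositol transporter gene counted at a mean of 0.0348 CPM, so its counts are uncertain.

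Mrps9 had the highest fold change of the 77 genes. It encodes the counterpart of bacterial S9 (NM_023514, chr1:42851233-42905683, plus strand). Mrps9 was at 29.6, 33.6, 29.4, 30.1 and 26.0 CPM in GRMAC and 25.5, 24.6, 28.7, 26.8 and 24.3 CPM in GRflox. In GRMAC 4 of 5 libraries lay above every GRflox library (0.20 ± 0.07, edgeR adjusted p = 0.203).

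Mrps34, which has no bacterial counterpart and keeps the small subunit stable in mice, was the third gene without overlap between the genotypes (NM_023260, chr17:24895120-24896273, plus strand). Mrps34 was at 40.6, 34.5, 39.5, 38.1 and 39.0 CPM in GRMAC and 42.0, 41.6, 44.1, 41.3 and 42.9 CPM in GRflox (−0.14 ± 0.05, edgeR adjusted p = 0.204). In all, 3 of 77 genes (Mrps6, Mrpl53 and Mrps34) had every GRMAC library below every GRflox library, where 2.01% of all genes did, and none had every GRMAC library above, where 2.05% of all genes did.

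Mrps2, the counterpart of bacterial S2, was at 39.8, 31.4, 34.6, 47.2 and 36.8 CPM in GRMAC and 47.2, 39.5, 46.1, 42.0 and 50.8 CPM in GRflox, with overlap (−0.25 ± 0.10, edgeR adjusted p = 0.246). Mrps16 and Mrps15, counterparts of bacterial S16 and S15 given after their values were seen, also had an unadjusted p under 0.05. Mrps16 was at 12.4 ± 1.40 CPM in GRMAC and 14.1 ± 0.426 CPM in GRflox (−0.18 ± 0.08). Mrps15 was at 17.0 ± 1.37 CPM in GRMAC and 18.9 ± 0.709 CPM in GRflox (−0.15 ± 0.07). Mrps12, whose bacterial counterpart lines the decoding centre, was at 20.8 ± 2.97 CPM in GRMAC and 22.2 ± 1.57 CPM in GRflox (−0.09 ± 0.09). Mrps27, a pentatricopeptide repeat protein (0.01 ± 0.07), and Mrps35 (0.01 ± 0.09) were near 0, and each changed sign without GRflox 2; Mrps35 also did so without GRflox 5, GRMAC 1, GRMAC 3 or GRMAC 4. Mrps21 (−0.04 ± 0.08), Mrps26 (−0.07 ± 0.08) and Mrps25 (−0.10 ± 0.13) did not pass either.

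**Figure D3:**
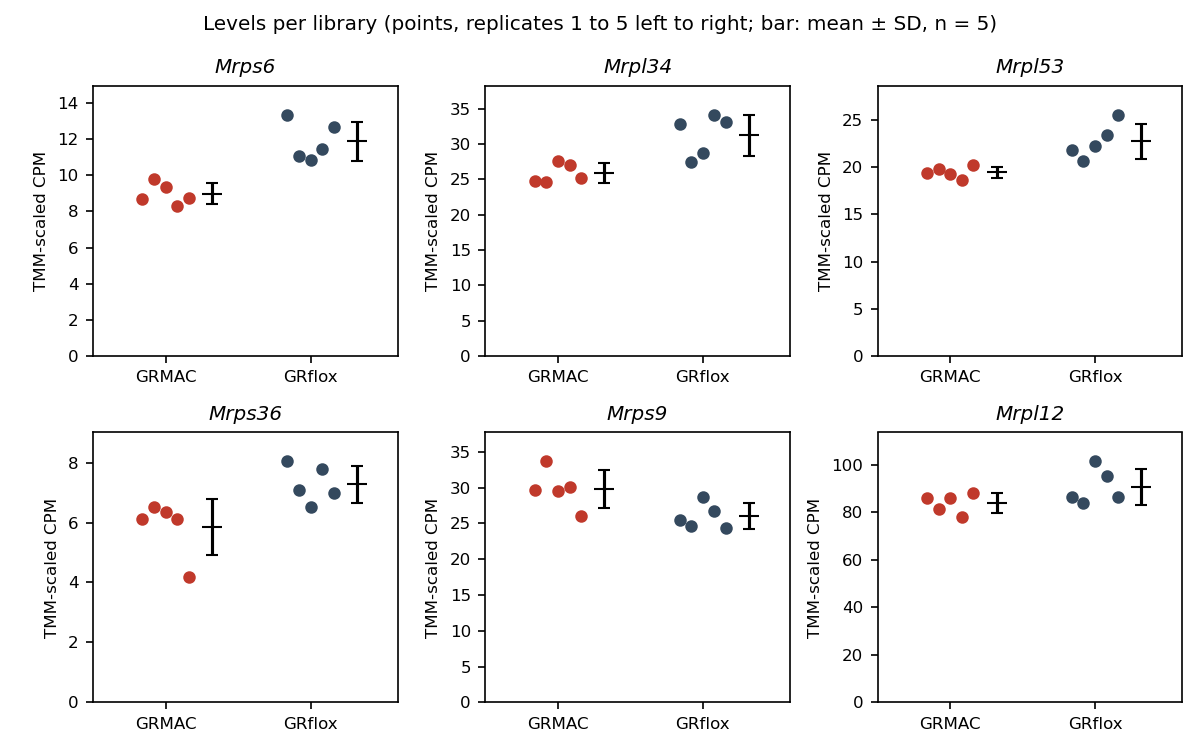
TMM-scaled CPM (y axis, from 0) in each library, GRMAC left and GRflox right in each panel, with the mean ± SD (n = 5) beside the points. The groups do not overlap for Mrps6 and Mrpl53, and they do for Mrpl34, Mrps36, Mrps9 and Mrpl12.

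Some symbols do not say where the protein sits. In structures of the human and pig mitoribosome the products of Mrps18a and Mrps30 lie in the large subunit, and that of Mrps18b is found in the small subunit as a protein apart from the S18 counterpart, Mrps18c. Mrps18a was at 19.3 ± 1.44 CPM in GRMAC and 20.2 ± 1.76 CPM in GRflox (−0.07 ± 0.08). Mrps18b was at 30.9 ± 2.99 CPM in GRMAC and 32.5 ± 3.66 CPM in GRflox (−0.08 ± 0.09). Mrps18c was at 11.4 ± 1.23 CPM in GRMAC and 12.3 ± 0.836 CPM in GRflox (−0.11 ± 0.09). These paralogues lay within 1 SE of each other. Mrps30 was at 23.3 ± 0.738 CPM in GRMAC and 23.6 ± 1.56 CPM in GRflox (−0.02 ± 0.06). With Mrps18a and Mrps30 moved to the large subunit the medians were −0.0710 (large) and −0.0978 (small).

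The product of Mrps36 is known as a subunit of the 2-oxoglutarate dehydrogenase complex of the citric acid cycle and is absent from mitoribosome structures. By its symbol the gene was kept in all counts, medians and sums of the small subunit given here. Mrps36 was at 6.12, 6.505, 6.35, 6.11 and 4.20 CPM in GRMAC and 8.04, 7.07, 6.504, 7.77 and 6.98 CPM in GRflox. Apart from GRMAC 5 the GRMAC libraries lay close together, below 4 of 5 GRflox libraries, and GRMAC 2 was level with GRflox 3 (−0.31 ± 0.12, edgeR adjusted p = 0.225).

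Levels per exonic length (CPM per kb, mean of the 10 libraries) spread widely although the proteins, that of Mrps36 aside, share one particle. Mrpl12 (66.3) and Mrpl52 (62.7) were highest in the large subunit, and Mrps21 (63.3) and Mrps34 (44.0) in the small. Mrpl19 (2.38) and Mrpl47 (3.59) were lowest in the large subunit, and Mrps25 (1.26) and Mrps26 (4.57) in the small. These levels rest on the longest matched transcript (6073 bases for Mrps25, 5000 for Mrpl19) and on counts that may include introns. For Mrps26 that transcript, of 4278 bases, is longer than the whole span of the gene in the count table (chr2:130563757-130565394). Its level per length is therefore understated and its place in this order uncertain. Some other members also have a transcript longer than their span. Mrpl52 was at 25.8 ± 2.82 CPM in GRMAC and 26.6 ± 1.83 CPM in GRflox (−0.04 ± 0.08). Across the 77 genes Spearman's rho of fold change with level per length was −0.029.

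**Figure D4:**
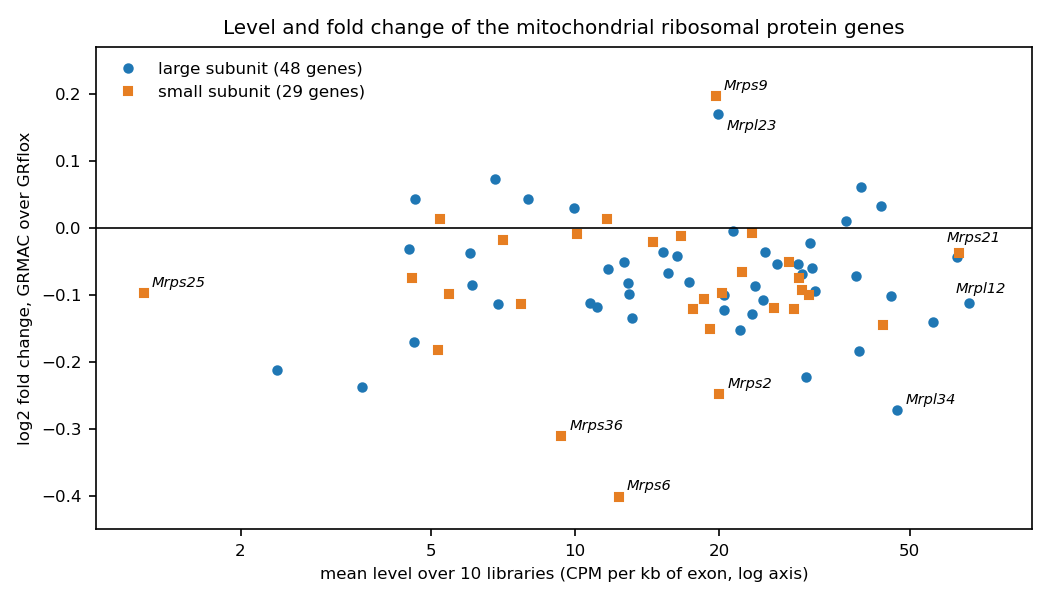
Log2 fold change of GRMAC over GRflox (y axis) against the mean level over 10 libraries (x axis, CPM per kb of exon, log axis) for 48 large (circles) and 29 small (squares) subunit genes. Points below 0 occur at all levels, and Spearman's rho is −0.029. Lengths are those of the longest matched transcript, which exceeds the gene's span for some genes, Mrps26 among them.

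By descent, the 46 genes with a bacterial counterpart had a median log2 fold change of −0.0967 and 39 below 0, and the 31 without one had −0.0692 and 27 below 0. Exons of 25 of the 77 genes overlap those of another annotated gene. Besides Mrpl19, Mrpl47, Mrpl53 and Mrps6, these include Mrpl10, Mrpl12, Mrpl24, Mrps18b, Mrps18c, Mrps25, Mrps26, Mrps27 and Mrps30. The 52 genes with no such overlap had a median of −0.0710, with 43 below 0.

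Promoters of mitoribosomal genes are known to bind NRF1, YY1 and ETS factors such as GABP, regulators that tie nuclear genes to mitochondrial function. RefSeq promoter windows (GRCm38.p6, 250 bases before to 50 after an annotated start) were matched by symbol for 68 of the 77 genes, in 74 windows. That start can differ from the gene's start in the count table. Some windows, those of Mrpl20, Mrpl23 and Mrps18b among them, lie wholly upstream of the latter. Windows of 6 genes are shown because these genes have the 2 lowest fold changes and the highest fold change of each subunit. In the large subunit they are Mrpl34 (chr8:71464676-71464975, plus strand), Mrpl47 (chr3:32736706-32737005, minus strand) and Mrpl23 (chr7:142532782-142533081, plus strand). In the small subunit they are Mrps6 (chr16:92058086-92058385, plus strand), Mrps36 (chr13:100744610-100744909, minus strand) and Mrps9 (chr1:42850983-42851282, plus strand). Each is written 5′ to 3′ on its gene's strand, in lower case, with matches to the ETS motif CCGGAAG on either strand in capitals. Mrpl34 holds 1 match, and the other windows shown hold no match to the ETS, NRF1 or YY1 letters searched.
Mrpl34: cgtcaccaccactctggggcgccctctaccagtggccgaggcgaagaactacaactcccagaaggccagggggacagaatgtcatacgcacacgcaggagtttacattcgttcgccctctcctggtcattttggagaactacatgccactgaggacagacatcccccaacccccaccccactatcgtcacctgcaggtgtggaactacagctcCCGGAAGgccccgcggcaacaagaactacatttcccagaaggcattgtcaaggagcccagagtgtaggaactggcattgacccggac
Mrpl47: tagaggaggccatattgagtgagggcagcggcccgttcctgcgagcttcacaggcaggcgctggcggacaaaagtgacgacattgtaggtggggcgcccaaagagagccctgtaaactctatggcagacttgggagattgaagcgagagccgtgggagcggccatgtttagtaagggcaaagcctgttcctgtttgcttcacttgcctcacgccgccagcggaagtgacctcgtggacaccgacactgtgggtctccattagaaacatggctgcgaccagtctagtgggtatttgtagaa
Mrpl23: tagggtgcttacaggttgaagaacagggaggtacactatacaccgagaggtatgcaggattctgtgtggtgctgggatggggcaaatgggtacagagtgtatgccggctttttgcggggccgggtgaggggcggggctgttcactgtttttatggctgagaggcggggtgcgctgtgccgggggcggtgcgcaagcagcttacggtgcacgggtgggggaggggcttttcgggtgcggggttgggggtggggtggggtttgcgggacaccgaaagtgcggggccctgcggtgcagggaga
Mrps6: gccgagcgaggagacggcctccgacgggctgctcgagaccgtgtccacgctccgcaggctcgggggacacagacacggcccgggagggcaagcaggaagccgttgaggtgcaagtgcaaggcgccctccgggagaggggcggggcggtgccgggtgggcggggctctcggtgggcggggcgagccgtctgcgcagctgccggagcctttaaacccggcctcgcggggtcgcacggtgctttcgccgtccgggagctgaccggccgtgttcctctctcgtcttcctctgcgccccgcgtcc
Mrps36: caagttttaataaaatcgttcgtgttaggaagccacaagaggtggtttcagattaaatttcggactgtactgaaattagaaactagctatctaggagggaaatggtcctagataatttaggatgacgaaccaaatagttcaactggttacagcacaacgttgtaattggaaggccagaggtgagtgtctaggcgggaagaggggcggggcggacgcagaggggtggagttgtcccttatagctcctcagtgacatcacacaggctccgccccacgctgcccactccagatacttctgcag
Mrps9: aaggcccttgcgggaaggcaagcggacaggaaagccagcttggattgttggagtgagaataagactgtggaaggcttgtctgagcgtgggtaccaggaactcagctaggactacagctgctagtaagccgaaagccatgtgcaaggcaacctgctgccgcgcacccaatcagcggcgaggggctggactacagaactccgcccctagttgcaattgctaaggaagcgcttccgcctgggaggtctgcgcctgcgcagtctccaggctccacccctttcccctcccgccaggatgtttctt

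On both strands, CCGGAAG stood in 25 of the 74 windows (33.8%), where 8.86% of all 32851 windows held it. The NRF1 palindrome, GCGCA followed directly by its reverse complement TGCGC, was found in 3 windows, of Mrpl9, Mrpl32 and Mrpl39 (4.05%, against 0.971% of all windows), and the YY1 letters GATGGCG in 8 (10.8%, against 3.49%). No match to one motif overlapped a match to another in the 74 windows. The glucocorticoid receptor palindrome, GNACA and TGTNC set 3 bases apart with N as any base, was in none of the 74 and in 0.475% of all windows. At so low a share, 74 windows are too few to tell whether the palindrome is rarer in them. The 25 genes with the ETS letters had a median log2 fold change of −0.0751, with 22 below 0, and the 43 with a window and no ETS letters −0.0849, with 37 below 0. A match to these letters is a description of the window and shows no binding.

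Mitoribosomal proteins with other kinds of symbol were centred near 0, with a median of −0.0075 and 3 of 6 below 0. Dap3, a GTP-binding small subunit protein, was at 29.4 ± 2.08 CPM in GRMAC and 27.3 ± 1.53 CPM in GRflox (0.11 ± 0.06, edgeR adjusted p = 0.436). Ptcd3 (0.06 ± 0.08), Chchd1 (0.01 ± 0.08) and Aurkaip1 (−0.05 ± 0.08), also of the small subunit, did not pass, nor did Gadd45gip1 (−0.03 ± 0.07) and Ict1, a peptidyl-tRNA hydrolase built into the large subunit (−0.05 ± 0.08).

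No gene of the 4 lists of factors that serve the mitoribosome was called by edgeR. Of 15 translation factors and related genes 8 were below 0 (median −0.0142). Guf1, a translational GTPase, had the lowest p of them (16.6 ± 1.28 CPM in GRMAC and 14.5 ± 1.11 CPM in GRflox, 0.20 ± 0.08). Of 25 assembly and ribosomal RNA factors 15 were below 0 (median −0.0245), and Ngrn, which supports the large ribosomal RNA in human cells, was at 19.5 ± 0.673 CPM in GRMAC and 22.1 ± 1.18 CPM in GRflox, with no overlap (−0.18 ± 0.06, edgeR adjusted p = 0.175). Of 22 mitochondrial transfer RNA synthetases and related enzymes 14 were below 0 (median −0.0529), with Ears2, which charges glutamate transfer RNA, at 15.6 ± 1.61 CPM in GRMAC and 20.4 ± 4.61 CPM in GRflox (−0.39 ± 0.14). Of 18 genes of mitochondrial transcription, genome upkeep and their regulators 14 were below 0 (median −0.0583). Esrra, a nuclear receptor of mitochondrial genes, was at 55.5 ± 3.78 CPM in GRMAC and 62.1 ± 2.09 CPM in GRflox, with no overlap (−0.16 ± 0.06, edgeR adjusted p = 0.183). Ngrn among 25 genes and Esrra among 18 were the only ones of their lists without overlap. Of all genes, 2.01% had every GRMAC library below every GRflox library. At an unadjusted p under 0.05, 4 of the 25 assembly factors and 3 of 18 genes of transcription and upkeep were lower in GRMAC. The same held for 1 of 22 synthetase genes and no gene of the translation factor list, where 7.75% of all genes were lower. Higher were 1 of 15 genes of the translation factor list and 3 of 22 synthetase genes, where 8.58% of all genes were. No gene of the assembly or the transcription and upkeep list was higher at that p. No transcript of the mitochondrial genome is in the count table, so the RNAs that the mitoribosome is built on and translates were not analysed here.

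Nuclear-encoded subunits of oxidative phosphorylation, the machinery to which the mitoribosome adds its own products, leaned the same way. Of 78 such genes 62 were below 0 (median −0.0571), and edgeR called none. At an unadjusted p under 0.05, 8 of them were lower (10.3%, where 7.75% of all genes were) and 0 higher. Uqcrfs1, the Rieske iron-sulphur protein of complex III, was at 208.8, 210.7, 208.1, 204.0 and 209.3 CPM in GRMAC and 232.9, 213.9, 240.1, 238.7 and 234.7 CPM in GRflox. Its groups did not overlap (−0.16 ± 0.05, edgeR adjusted p = 0.173), and it passed in the authors' deposited table (adjusted p = 0.0244). Of the 78 genes, 2 had every GRMAC library below every GRflox library, where 2.01% of all genes did. Of the cytosolic ribosomal protein genes 35 of 76 were below 0, with a median of 0.0015. At an unadjusted p under 0.05, 4 of the 76 were higher in GRMAC, where 8.58% of all genes were, and none were lower. The authors' deposited table has 3 as higher past its adjusted p of 0.05 (Rpl39, Rpl3 and Rpl21) and none as lower. Of its genes with an adjusted p, 1.84% passed as higher. Rpl39 was at 30.2 ± 2.69 CPM in GRMAC and 21.3 ± 2.59 CPM in GRflox (0.50 ± 0.09) and passed with edgeR (adjusted p = 0.0432). That call was lost with limma-voom, without robust estimation, with the GC content and length correction, without GRflox 4 and GRMAC 4, and in 9 of 10 fits without 1 library, with adjusted p up to 0.108. Rpl39 has many processed copies, so its counts are uncertain. Rpl3 was at 178.6 ± 6.46 CPM in GRMAC and 147.6 ± 9.75 CPM in GRflox (0.28 ± 0.06, edgeR adjusted p = 0.0649), and Rpl21 was at 25.6 ± 6.51 CPM in GRMAC and 16.7 ± 2.62 CPM in GRflox (0.62 ± 0.18, edgeR adjusted p = 0.139). The groups of Rpl21 overlapped, GRMAC 1 and GRMAC 2 lying below GRflox 4. The differences between these lists and the mitoribosomal genes were not tested.

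**Figure D5:**
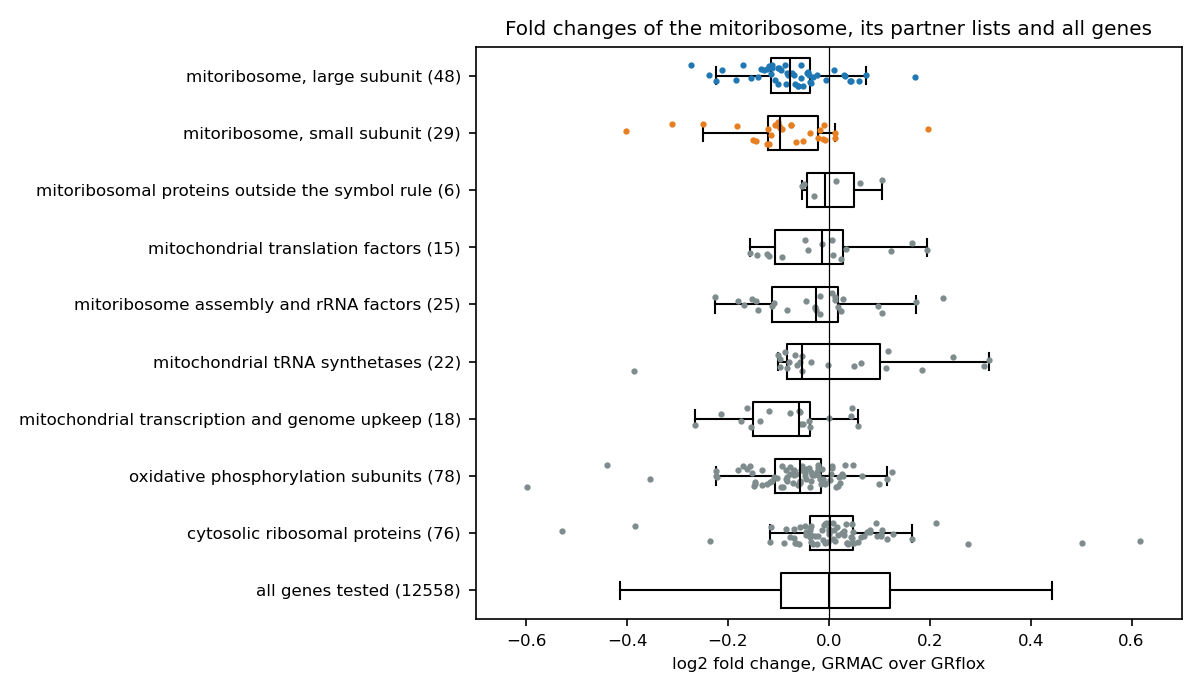
Log2 fold change of GRMAC over GRflox (x axis) for each list, with the number of genes in brackets; boxes span the quartiles with the median, whiskers reach 1.5 times the box, and points are genes, except for all genes tested. Medians are −0.0765 and −0.0971 for the mitoribosomal subunits, −0.0571 for oxidative phosphorylation, 0.0015 for cytosolic ribosomal proteins and 0.0010 for all genes.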

How the data were processed

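The authors deposited one table of whole-number read counts per gene for 10 libraries, with 1 RefSeq transcript per row. Tools listed in the submitters' processing notes are HISAT2 2.1.0 and DESeq2 1.24.0, with mm10 as the build; the counting program, strand setting and use of introns are not given in the sources used here. A second deposited table gives the authors' log2 fold changes and adjusted p-values, per the file headers; its 10 columns of values per library were not used. Libraries held 23258884 to 27692528 counts. Genes were filtered with filterByExpr, which kept 12558 of 19764 genes and removed 0.0348% of counts, scaled by TMM and tested with edgeR 4.0.16 (robust quasi-likelihood, R 4.3.3), adjusted by Benjamini-Hochberg over all genes, with a threshold of 0.05. CPM are TMM-scaled, as mean ± SD; mean deviations use log2 CPM with a prior count of 2. Exonic length and GC content come from GENCODE M21 transcripts, found by RefSeq accession for all 77 members and for 99.9% of tested genes by accession or symbol. Where several transcripts matched, the longest was taken. Coordinates are those of the count table, with the first base counted as 1. The code was tested on simulated data with fold changes larger than that of any member. Recovery of changes as small as those of the members was not tested. The alternatives were DESeq2 1.42.0, limma-voom (limma 3.58.1), other scalings and filters, splines on GC content and length (5 degrees of freedom), a block for the replicate number, and fits without single libraries.

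Genes named are the members with the lowest p, the largest fold changes either way and the highest and lowest levels per length in each subunit, some members given whatever their result, and the called genes or the gene with the lowest p of each companion list. Genes of the structural groups, Rpl3, Rpl21, Mrps15, Mrps16, Mrpl9, Mrpl32 and Mrpl39 were named after their values were seen. The members and lists were chosen with earlier results of these data known.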

Additional observations from a re-analysis of the deposited data

Results flagged for a closer look

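Of 84 groups of 5 values examined (the named genes in each genotype and 3 summaries of the subunits), 3 held 1 value far from the other 4, where chance gives about 4.2 (1 in 20). Mrps36 was at 4.20 CPM in GRMAC 5, below 6.11 to 6.505 CPM in the other GRMAC libraries. Mrps25 was at 9.39 CPM in GRMAC 2, above 6.59 to 7.02 CPM in the other GRMAC libraries. Uqcrfs1 was at 213.9 CPM in GRflox 2, below 232.9 to 240.1 CPM in the other GRflox libraries.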

How the results depend on the processing

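Both subunit medians stayed below 0 under every alternative run. The number of members below 0 was 57 to 67 of 77, lowest without GRflox 4 and GRMAC 4 together. Leaving out 1 library gave medians of −0.0891 to −0.0567 (large) and −0.1034 to −0.0636 (small, lowest in size without GRMAC 4), and −0.0592 (small) without GRflox 4 and GRMAC 4. The cause was not tested. Called members were 0 in each subunit, except 1 in each with DESeq2 (Mrpl34 and Mrps6, adjusted p = 0.0267 and 0.00347) and 1 in the small subunit at adjusted p under 0.1. Uqcrfs1 also passed with DESeq2. Over all genes 22 calls became 447 with DESeq2, 8 with limma-voom, 8 without robust estimation, 34 without a filter, 9 with the GC content and length correction, 68 without GRflox 4 and GRMAC 4, 241 at adjusted p under 0.1, and 5 to 47 when 1 library was left out. With the replicate number as a block there were 81 calls (76 with the GC content and length correction), and medians of −0.0776 (large) and −0.1011 (small), with no member called. Same-numbered libraries deviated together with correlations of −0.1082 to 0.1727, of which 2 of 5 were over 0.1. The numbers were not taken as pairs, but these correlations and the 81 calls with the block do not settle whether they are. The best match was the same-numbered library for GRMAC 3 and 5 and for GRflox 2 and 3. Genes near 0 changed sign. With the GC content and length correction, Mrpl1 was at −0.0081 (−0.0109 with the block), Mrpl52 at 0.0083 (0.0097), Mrps35 at −0.0143 (−0.0143), Ict1 at 0.0009 (0.0018) and Ptcd3 at −0.0028. Without GRflox 4 and GRMAC 4, Mrpl52 was at 0.0025, Mrps35 at −0.0051, Mrps21 at 0.0255, Aurkaip1 at 0.0268, Gadd45gip1 at 0.0084 and Ict1 at 0.0168. Leaving out 1 library gave −0.0720 to 0.1366 for Mrpl38, −0.0909 to 0.0090 for Mrpl52, −0.0268 to 0.0614 for Mrps35, −0.0290 to 0.0563 for Mrps27, −0.0739 to 0.0151 for Mrps21, −0.0551 to 0.0022 for Mrps30, −0.0010 to 0.0978 for Ptcd3, −0.0430 to 0.0712 for Chchd1 and −0.0577 to 0.0119 for Gadd45gip1. Rpl39 stayed above 0 under every alternative run.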
